A study of Homo sapiens with 10 samples.

Results

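Baseline translational efficiency was described in KOPT-K1 cells, an established line grown from a human T-cell leukaemia (T-ALL), from the 5 DMSO libraries among the 10 libraries of the series. DMSO is the solvent in which drugs are given, and these cells received it for 45 minutes as the vehicle arm of a study of silvestrol, an inhibitor of the initiation helicase eIF4A. Ribosome-protected fragments (footprints) were sequenced in 2 of the 5 libraries and RNA in 3, and no silvestrol library entered any value. A gene was a member where its mean level was at least 1 RPKM (reads per kilobase of gene per 1e6 reads) in each assay, which held for 10287 of 55889 genes, 9020 of them protein-coding. A further 2058 genes reached 1 RPKM in RNA and not in footprints, and 1697 in footprints and not in RNA. The low limit therefore removed genes from either end of the range.

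A ribosome shields the stretch of mRNA on which it sits from nuclease, so sequencing the shielded fragments shows where ribosomes are, and RNA sequencing of the same cells shows how much message there is. The footprint level over the RNA level is the translational efficiency, a measure of how densely a message is covered by ribosomes. Dense coverage can come from frequent initiation or from slow elongation, and footprint counts alone do not separate them. Fragments of about the size of a ribosome are short, so a fragment that matches a gene and also its pseudogenes (inactive genomic copies, often made by reverse transcription of an abundant mRNA) has no single origin in the genome.

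The 2 footprint libraries held an estimated 2.27 and 1.67 M reads (M: 1e6), and the RNA libraries between 160 and 217 M. Log2 levels correlated at 0.924 between the footprint libraries and at 0.998 to 0.999 among the RNA libraries over the 10287 genes, and the median SD between replicates was 0.18 and 0.04 on the log2 scale. The spread of the footprints thus set the precision of each efficiency. The 15 T lineage markers all reached 1 RPKM in RNA, with a summed level of 1767 to 1827 RPKM. All 8 myeloid, all 7 erythroid and all 8 stromal markers lay below 1 RPKM, and 5 of 8 B lineage markers did. The B lineage genes above that limit included CD79A, a B-cell receptor chain, at 40.7 and 45.0 RPKM in footprints and 32.2, 32.8 and 31.0 RPKM in RNA. Nothing in the labels ties the replicates to independent cultures, and the p-values below therefore cover only library-to-library spread, possibly of technical origin.

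Most messages lay close to each other in efficiency. The log2 ratio of footprint to RNA level, with 0.5 RPKM added to each, had a median of -0.39 and an interquartile range of -0.89 to 0.11 over all tested genes. Because the zero of a ratio between assays is set by the composition of each library, genes were tested against the median gene with limma. A gene was called higher or lower where it lay at least 2-fold from the median gene with a Benjamini-Hochberg adjusted p under 0.05. By that rule 983 genes (9.56% of those tested) were called higher and 975 (9.48%) lower, together 1958 (19.0%). With the levels taken as deposited, without centring, the split was 410 higher (3.99%) and 2150 lower (20.9%), and among genes named below MYC, ETV6, PDCD4, EBP, CCNB1 and CDK1 were then not called.

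**Figure D1:**
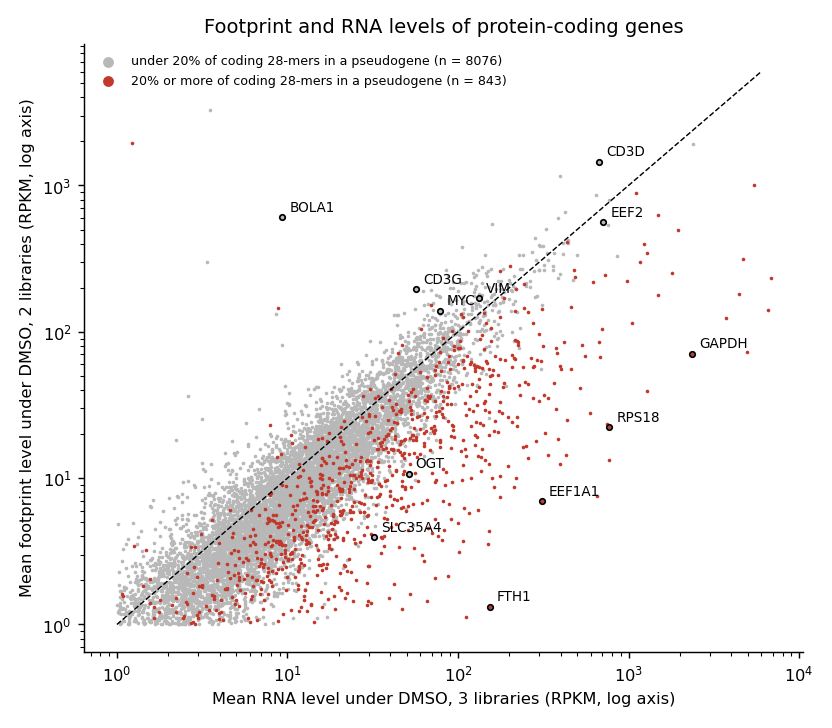
Mean footprint level (2 libraries) against mean RNA level (3 libraries) under DMSO for tested protein-coding genes with a coding sequence, both in RPKM on log axes; the dashed line marks equal levels. Genes with at least 20% of their coding 28-mers in a pseudogene (red) make up most of the cloud below the line at high RNA levels, including FTH1, EEF1A1, GAPDH and RPS18, while EEF2 and VIM lie near the line.

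The lowest efficiencies among the named genes belonged to abundant messages, which the selection partly fixed. Members needed at least 1 RPKM in footprints, and the ranked genes a geometric mean of at least 10 RPKM over both assays. Ratios this low could therefore be seen only in genes with a high RNA level. FTH1, the ferritin heavy chain that stores iron, stood at 0.869 and 1.78 RPKM in footprints and at 149, 158 and 154 RPKM in RNA, a log2 efficiency of -6.40. GAPDH, a glycolytic enzyme, stood at 71.9 and 69.6 RPKM in footprints and 2350, 2360 and 2320 RPKM in RNA, an efficiency of -5.04. EEF1A1, the elongation factor that brings aminoacyl-tRNA to the ribosome, stood at 5.57 and 8.40 RPKM in footprints and 308, 308 and 315 RPKM in RNA, an efficiency of -5.38. In each of the 3 genes both footprint libraries lay far below all 3 RNA libraries. Relative to the median gene the differences were -5.98 (SE 0.21, adjusted p = 3.8e-07, limma) for FTH1, -4.57 (SE 0.10, adjusted p = 3.6e-08) for GAPDH and -4.93 (SE 0.15, adjusted p = 1.3e-07) for EEF1A1. Also among the 12 lowest were YBX1, an mRNA-binding protein (-6.35), FTL, the ferritin light chain (-5.81), TMSB4X, an actin-binding peptide (-5.00), the mitochondrial lipid carrier PRELID1 (-5.06), and the ribosomal proteins RPL12 (-5.21) and RPS18 (-5.08). LUZP6 and ENSG00000263809, which also belonged to the 12, had about 1 and 9 footprint reads, and the call of LUZP6 was lost without RNA replicate 2 and with the replicate block.

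The genes of this group with a coding sequence in the annotation, which LUZP6 and ENSG00000263809 lack, share a property. Much of their coding sequence also occurs in other genes. How reads with several matches were counted is not known here, so this property may not be independent of the levels. Every stretch of 28 coding bases, close to the length of a footprint, was looked up in the transcripts of all other genes in GENCODE release 29. The share found elsewhere was 91.4% for FTH1, 70.5% for GAPDH, 99.0% for EEF1A1 and 85.2% for RPS18. It was 0% for EEF2, the elongation factor that moves the ribosome along, 0.946% for the filament protein VIM and 0% for CD3G, a chain of the T-cell receptor complex. The opening 28 coding bases of 4 low genes and 4 genes with their own sequence are shown because they give the unit on which a footprint has to be placed; capitals mark the start codon, and sequences read 5′ to 3′ on the coding strand of the GENCODE 29 transcripts (GRCh38).
FTH1 (chromosome 11): ATGacgaccgcgtccacctcgcaggtgc
GAPDH (chromosome 12): ATGgggaaggtgaaggtcggagtcaacg
EEF1A1 (chromosome 6): ATGggaaaggaaaagactcatatcaaca
RPS18 (chromosome 6): ATGtctctagtgatccctgaaaagttcc
EEF2 (chromosome 19): ATGgtgaacttcacggtagaccagatcc
VIM (chromosome 10): ATGtccaccaggtccgtgtcctcgtcct
CD3G (chromosome 11): ATGgaacaggggaagggcctggctgtcc
SLC35A4 (chromosome 5): ATGagtgtagaggatgggggtatgccag

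The opening of EEF1A1 occurred unchanged in 5 other genes, that of RPS18 in 4, that of FTH1 in 2 and that of GAPDH in 1, all of them annotated pseudogenes. None of the openings of EEF2, VIM, CD3G and SLC35A4 occurred in another gene. Deeper in the coding sequence the copies were more numerous: the most shared 28 bases of EEF1A1 (starting at coding base 1307) lay in 15 other genes, those of FTH1 (from base 162) in 13 and those of GAPDH (from base 353) in 11.

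Across protein-coding genes, efficiency was lower the more coding sequence a gene shared with pseudogenes. The median log2 efficiency was -0.34 in the 6474 genes with no coding 28-mer in a pseudogene, -0.40 up to 5% (954 genes), -0.61 above 5 and up to 20% (650 genes), -1.19 up to 50% (535 genes), -2.24 up to 80% (215 genes) and -3.02 above 80% (91 genes). The share of genes called lower went from 4.31% in the class with none to 87.9% in the highest class. Counted over any other gene and not pseudogenes alone, the share of coding 28-mers gave no such steady order: the median was -1.33 above 50 and up to 80% (355 genes, 46.8% called lower) and -0.69 above 80% (436 genes, 31.9% lower and 9.17% higher). Of 825 protein-coding genes called lower, 421 (51.0%) had at least 20% of their coding 28-mers in a pseudogene, against 9.35% of all tested protein-coding genes and 2.07% of the 627 called higher. No source used here gives how the authors treated reads that match several places, and the part of shared sequence in the low efficiencies was not tested. Expression level also differed between these classes: the median RNA level was 9.94 RPKM in the class with none and 82.6 RPKM in the highest.

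**Figure D2:**
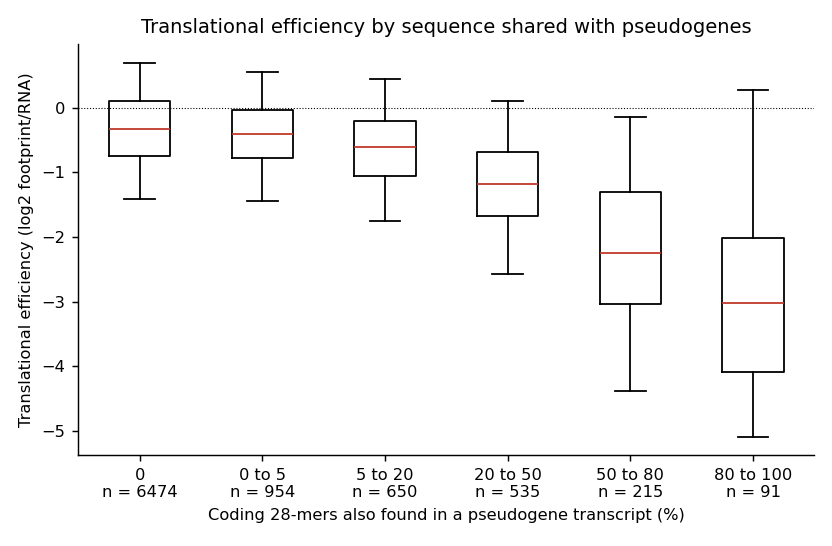
Log2 translational efficiency of tested protein-coding genes in 6 classes by the percentage of coding 28-mers also found in a pseudogene transcript; boxes show quartiles and the median, whiskers the 5th and 95th percentiles. The median lies at -0.34 in the class with none and at -3.02 in the class above 80%.

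Reads assigned to the pseudogenes themselves showed the same split between the assays. GAPDH and its 64 named pseudogenes were compared as a family: the pseudogenes took 28.3% of the family's footprint reads and 0.22% of its RNA reads. For the EEF1A1 family of 46 pseudogenes the shares were 34.5% and 1.87%, and for the 25 pseudogenes of FTH1 49.9% and 1.95%, there from about 5 footprint reads on either side. Adding the pseudogene reads back moved the efficiency of GAPDH by 0.48 and that of EEF1A1 by 0.58 on the log2 scale. Across all 77 cytosolic ribosomal proteins the median move was 0.03. If reads with several matches were dropped in counting, they are in neither a gene nor its pseudogenes. The moves therefore cannot show the part of shared sequence in the low efficiencies, which was not tested. Among processed pseudogenes in general, 1006 reached 1 RPKM in footprints and 330 in RNA, and they held 0.51% of estimated footprint reads and 0.11% of RNA reads. The footprint libraries held 1.67 and 2.27 M reads and the RNA libraries 160 to 217 M. A level of 1 RPKM thus rests on far fewer reads in footprints, and the 2 counts are not measured alike.

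Cytosolic ribosomal protein genes, all of which share coding sequence with other genes, mostly fell at the low end. Cytosolic ribosomal protein mRNAs begin with a terminal oligopyrimidine (TOP) tract, through which growth signals control their translation. Of 46 tested large subunit genes 35 were called lower and 2 higher (median -2.92), and of 31 small subunit genes 25 were called lower and none higher (median -2.59), against 9.48% lower over all genes. No ribosomal protein gene had under 5% shared coding sequence, so none could be read from its own sequence alone. The 3 with under 25% shared had a median of -1.06, the 21 with 25 to 60% one of -1.63 and the 53 with 60% or more one of -3.56. RPS18 stood at 18.1 and 26.3 RPKM in footprints and 775, 760 and 768 RPKM in RNA, whereas RPS25 stood at 462 and 361 RPKM against 447, 437 and 429 RPKM. RPS18 thus had the higher RNA level and the lower footprint level of the 2 in every library, with 85.2% and 79.8% of their coding 28-mers shared.

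Other TOP messages divided along the same line. Of 20, 14 (70.0%) were called lower, against 9.48% over all genes, with a median of -2.35. Lowest were EEF1A1 and EIF4B, a cofactor of the initiation helicase (1.58 and 2.55 RPKM in footprints, 74.1, 71.4 and 73.6 RPKM in RNA, 87.5% shared). The 4 with under 5% shared sequence had a median of 0.07 and none was called. EEF2 stood at 583 and 542 RPKM in footprints and 711, 720 and 696 RPKM in RNA, an efficiency of -0.33 that lay 0.14 from the median gene (SE 0.11, adjusted p = 0.36, limma). VIM stood at 174 and 164 RPKM in footprints and 134, 134 and 130 RPKM in RNA, with footprints above RNA in every library.

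Initiation factors, which load the ribosome on the message, had a median of -0.47, near the -0.39 of all genes, and one of -0.04 for the 21 with their own sequence. Of 36 tested, 1 was called higher and 6 (16.7%) lower, against 9.48% lower over all genes. EIF4A1, the main eIF4A helicase, stood at 9.38 and 8.72 RPKM in footprints and 34.4, 34.1 and 34.4 RPKM in RNA (-1.87), but all of its coding 28-mers occurred in another gene. Its paralog EIF4A2 stood at 16.1 and 15.9 RPKM in footprints and 92.3, 89.2 and 91.3 RPKM in RNA (-2.47, 32.2% shared). PDCD4, which binds eIF4A and blocks it, was the factor called higher, at 17.1 and 10.4 RPKM in footprints against 7.24, 7.08 and 6.94 RPKM in RNA (0% shared). EIF4EBP2, a repressor of cap binding with 4.46% shared, stood low at 6.02 and 5.81 RPKM in footprints and 37.6, 36.5 and 37.8 RPKM in RNA, but its call reversed once footprints were scaled to coding length. The 22 cytosolic aminoacyl-tRNA synthetases, which charge tRNAs and all had their own sequence, had a median of -0.21 with 1 called higher and none lower.

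Several housekeeping families with much shared sequence had more genes called lower than the 9.48% over all genes. Of 34 chaperones, which fold proteins, 9 (26.5%) were called lower and 1 higher with a median of -0.83, while the 8 with own sequence had a median of 0.48. HSPA8, a heat-shock protein 70, stood at 55.2 and 55.6 RPKM in footprints and 467, 450 and 460 RPKM in RNA, with 57.9% of its sequence shared. Of 19 actin and tubulin genes 10 (52.6%) were called lower and none higher (median -1.56, with only 2 own-sequence members), including ACTB at 546 and 447 RPKM in footprints and 1950, 1990 and 1880 RPKM in RNA. Of 18 glycolytic genes 7 (38.9%) were called lower and none higher (median -0.80), and the 7 with own sequence had a median of -0.43, against -0.34 for all own-sequence genes. Of 32 SR and hnRNP proteins, which guide splicing, 6 (18.8%) were called lower and none higher, with medians of -0.47 for all, near that of all genes, and -0.07 for the 18 with own sequence.

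**Figure D3:**
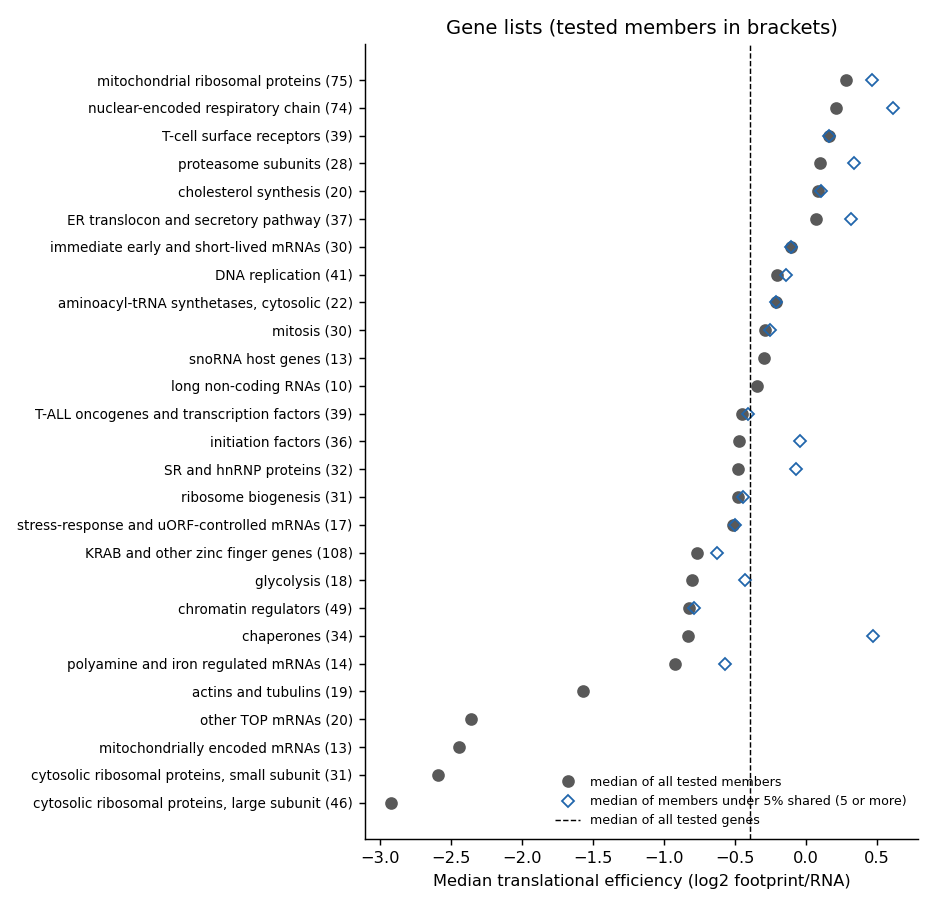
Median log2 translational efficiency of each gene list with at least 10 tested members (filled circles), and of its members with under 5% of coding 28-mers in another gene where there are 5 or more (open diamonds); the dashed line is the median of all tested genes. Ribosomal proteins, other TOP messages and mitochondrially encoded genes lie furthest left, and chaperones, initiation factors and SR and hnRNP proteins move to the right when only own-sequence members are kept.

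Fitted on the 6682 protein-coding genes with under 5% shared sequence, an alternative chosen after the data were seen, 453 genes (6.78%) were called higher and 308 (4.61%) lower. The median efficiency of these genes was -0.34 with an SD of 0.65, against -0.78 and 1.15 in the 2237 genes with 5% or more shared. The fit on all genes had called 509 of these genes higher and 268 lower, of which 448 and 268 were called again here in the same direction.

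High efficiency was common among short nuclear-encoded proteins of the mitochondrion. Of 74 tested subunits and assembly genes of the respiratory chain, which makes ATP, 25 were called higher and 11 lower (median 0.22), against 9.56% and 9.48% over all genes. Among the 36 with their own sequence 22 (61.1%) were called higher and none lower, with a median of 0.62. Over all genes with own sequence 7.62% were called higher and 4.01% lower. In the shortest of 4 coding-length classes of such genes the shares were 19.2% and 2.57%, so few lower calls were to be found there. NDUFB6, a complex I subunit, stood at 144 and 116 RPKM in footprints and 44.1, 45.2 and 42.7 RPKM in RNA, a difference of 2.01 from the median gene (adjusted p = 2.0e-05, limma). The 11 genes called lower were SDHD, COX6A1 and others with shared sequence: SDHD, a complex II anchor, stood at 1.04 and 1.98 RPKM in footprints and 39.8, 39.2 and 38.6 RPKM in RNA with 96.2% shared. Of 75 mitochondrial ribosomal proteins 23 were called higher and 2 lower (median 0.29), and 22 of the 50 with own sequence were called higher with none lower (median 0.47). MRPL54 led them at 121 and 101 RPKM in footprints and 44.6, 45.1 and 41.7 RPKM in RNA.

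The genes of the mitochondrial genome, translated by the mitochondrion's own ribosomes, behaved differently. Of 13, 8 (61.5%) were called lower and 1 (7.69%) higher, against 9.48% and 9.56% over all genes, with a median of -2.44. MT-CO1, a catalytic subunit of complex IV, stood at 64.1 and 82.4 RPKM in footprints and 5041, 4908 and 4967 RPKM in RNA, an efficiency of -6.08, with 70.8% of its sequence shared. MT-ND2, a complex I subunit, stood at 4230 and 7430 RPKM in footprints and 2372, 2272 and 2244 RPKM in RNA, an efficiency of 1.34. The 2 genes lie in the same compartment and differed by more than any spread between libraries.

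T-cell surface receptors formed a second group of high efficiency. Of 39 tested, 13 (33.3%) were called higher and none lower (median 0.16), against 9.56% higher over all genes, and 11 of the 33 with own sequence (33.3%) were called higher, against 7.62% of own-sequence genes. CD3G stood at 208 and 184 RPKM in footprints and 57.3, 55.9 and 56.7 RPKM in RNA, a difference of 2.25 from the median gene (SE 0.10, adjusted p = 1.3e-06, limma). CD3D, its partner in the receptor complex, stood at 1450 and 1460 RPKM in footprints and 688, 672 and 665 RPKM in RNA, a difference of 1.58. CD3E, the chain both pair with, stood at 223 and 209 RPKM in footprints and 256, 251 and 242 RPKM in RNA and was not called. In RPKM, footprints lay above RNA in every library for CD3G and CD3D and below it for CD3E. Relative to the median gene CD3E also lay above, by 0.26 (SE 0.13, adjusted p = 0.13, limma). CD38, an ectoenzyme of activated lymphocytes, was called higher at 19.7 and 19.4 RPKM against 8.24, 8.37 and 9.37 RPKM, while the integrin ITGAL (-0.92) and the antigen-presenting molecule CD1A (-1.21), the lowest of the list, were not called. With footprints rescaled to coding length ITGAL was called lower (-1.03), and CD1A was called lower without footprint replicate 2 or without centring.

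**Figure D4:**
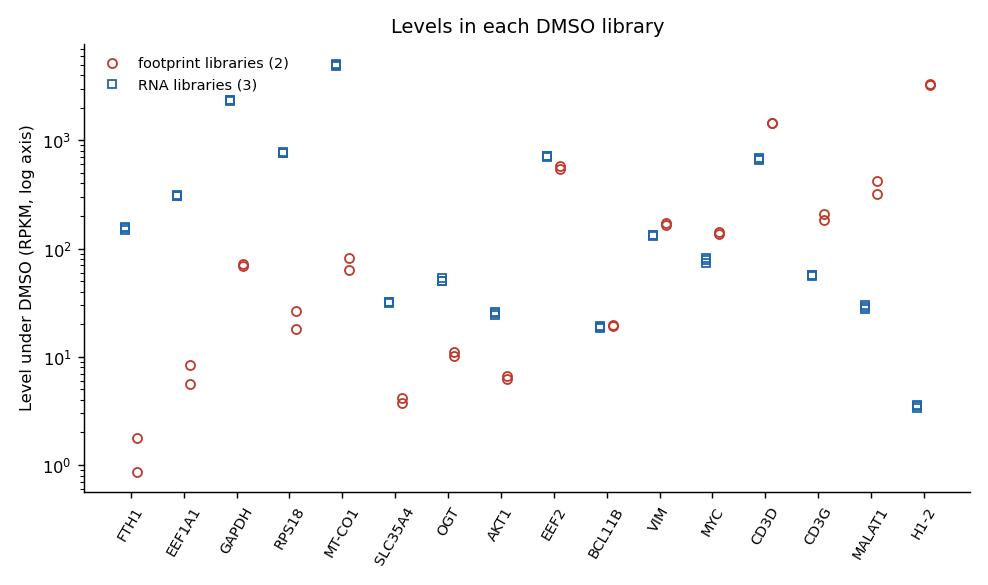
Level of 16 genes in each DMSO library in RPKM on a log axis, with RNA libraries as squares and footprint libraries as circles. FTH1, EEF1A1, GAPDH, RPS18, MT-CO1, SLC35A4, OGT, AKT1 and, by less, EEF2 have both footprint libraries below every RNA library. VIM, MYC, CD3D, CD3G, MALAT1, H1-2 and, narrowly, BCL11B have both above.

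Genes of the secretory pathway and the proteasome had shares above the background on the high side and, over all members, also on the low side. Of 37 genes of the ER translocon and secretory pathway 9 (24.3%) were called higher and 5 (13.5%) lower (median 0.07), against 9.56% and 9.48% over all genes, and all 9 called higher were among the 25 with own sequence (median 0.32). SSR4, a subunit of the translocon-associated complex, stood at 68.2 and 70.7 RPKM in footprints and 28.8, 29.3 and 28.2 RPKM in RNA. SRP9, part of the signal recognition particle, stood at 5.93 and 5.62 RPKM against 116, 115 and 119 RPKM, with all of its coding 28-mers shared. Of 28 proteasome subunits 5 (17.9%) were called higher and 3 (10.7%) lower (median 0.10). The 17 with own sequence had a median of 0.34 with 5 (29.4%) higher and none lower. Over all genes with own sequence the shares were 7.62% higher and 4.01% lower. PSMB1, a subunit of the catalytic core, stood at 175 and 173 RPKM in footprints and 78.7, 78.5 and 77.5 RPKM in RNA. With footprints rescaled to coding length SSR4 (0.89) and PSMB1 (0.83) fell under the 2-fold limit, and the median of all proteasome subunits went from 0.56 above the median gene to -0.14. Of 20 cholesterol synthesis genes 4 (20.0%) were called higher, EBP (an isomerase of the pathway) foremost with a difference of 1.30, and none lower.

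Long nuclear proteins had low medians with few calls. Of 49 tested chromatin regulators 1 was called higher and 4 (8.16%) lower, a share near the 9.48% over all genes, with a median of -0.82 for all and -0.79 for the 39 with own sequence, so the low median was also found in own-sequence members. KDM5C, a histone demethylase, stood at 5.01 and 4.55 RPKM in footprints and 17.2, 17.4 and 17.6 RPKM in RNA, a difference of -1.29 (adjusted p = 2.4e-04, limma). Of 108 tested zinc finger genes, many of which repress transposons, 12 (11.1%) were called lower, also near that background, and none higher (median -0.76, and -0.62 for the 59 with own sequence). ZNF664 had 20 upstream ATG codons in its 5′ leader and stood at 6 and 7.32 RPKM in footprints against 32.0, 31.1 and 32.6 RPKM in RNA, a call lost with footprints rescaled to coding length (-0.16). Another 12 zinc finger genes of the list reached 1 RPKM in RNA and not in footprints, and fell outside the test.

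Among the own-sequence genes the 12 lowest were ranked after the values were seen. SLC35A4, a nucleotide sugar transporter whose leader holds 17 upstream ATG codons, was lowest at 3.73 and 4.19 RPKM in footprints and 32.4, 31.8 and 31.7 RPKM in RNA, a difference of -2.40 (SE 0.14, adjusted p = 5.2e-06, limma). OGT, the enzyme that attaches O-GlcNAc to nuclear and cytosolic proteins, stood at 11.2 and 10.2 RPKM in footprints and 50, 50.5 and 53.3 RPKM in RNA, a difference of -1.74. The others were EIF4EBP2, ZNF22, VAMP1, ZNF664, IRAK1, POLE, NBEAL2, E2F4, MSL1 and SUGP2, with efficiencies from -2.56 to -1.90. IRAK1 carries toll-like receptor signals, POLE is the catalytic subunit of DNA polymerase epsilon, and E2F4 is a cell cycle repressor.

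At the high end of the same genes stood BOLA1, SFT2D2, RBX1, CCDC134, ETNK1, ZC3HAV1L, CD3G, POLR2L, DNAJC3, NAA38, TIMM10 and SPDYA. BOLA1, a mitochondrial iron-sulfur protein, stood at 625 and 588 RPKM in footprints and 9.51, 9.69 and 8.74 RPKM in RNA. In GENCODE 29 its exons overlap those of H2AC21, a replication-dependent histone on the other strand, which stood at a mean of 706 RPKM in footprints and 0.27 RPKM in RNA. No source used here gives the strand use in the counting, so reads of this pair cannot be told apart. SPDYA overlapped exons of PPP1CB and TRMT61B, SFT2D2 a pseudogene on the opposite strand, and POLR2L and NAA38 overlapped a gene on the opposite strand. No other gene's exons overlapped those of RBX1, CCDC134, ETNK1, CD3G, DNAJC3 and TIMM10. RBX1, the RING subunit of cullin ubiquitin ligases, stood at 49.1 and 35.6 RPKM in footprints and 9.83, 9.48 and 9.61 RPKM in RNA.

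T-ALL oncogenes and transcription factors as a list did not stand apart. Of 39 tested, 2 (5.13%) were called higher and 5 (12.8%) lower, against 9.56% and 9.48% over all genes, with a median of -0.44. MYC, the growth-promoting transcription factor, stood at 136 and 142 RPKM in footprints and 82.3, 77.7 and 73.8 RPKM in RNA, a difference of 1.30 (SE 0.20, adjusted p = 0.0016, limma), which fell to 0.99, just under the 2-fold limit, with footprints rescaled to coding length. ETV6, a repressor of the ETS family, was the other gene called higher, at 11.6 and 16.6 RPKM against 7.31, 7.09 and 7.06 RPKM. AKT1, a survival kinase with 20 upstream ATG codons in the annotated leader, was called lower at 6.23 and 6.72 RPKM in footprints and 25.2, 25.8 and 24.2 RPKM in RNA. NOTCH1, the receptor most often mutated in T-ALL, had an efficiency of -0.77, BCL2, which blocks cell death, one of -0.44, CDK6, a cell cycle kinase, one of -0.26 and BCL11B, a T-lineage factor, one of 0.05. None of these 4 was called. With footprints rescaled to coding length CDK6 (2.64) and BCL2 (2.24) were called higher and NOTCH1 (-1.18) lower, so their place depends on the length used.

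Messages with known translational control in their leaders were called at about the background share. Of 17 tested stress-response and uORF-controlled mRNAs (uORFs are short reading frames upstream of the coding sequence) 2 (11.8%) were called lower and 1 (5.88%) higher, against 9.48% and 9.56% over all genes, with a median of -0.51. SLC35A4 and ATF4, the transcription factor of the integrated stress response, were the low ones. ATF4 stood at 54.6 and 71.8 RPKM in footprints and 307, 312 and 302 RPKM in RNA, with 66.7% of its sequence shared. PPP1R15B, a phosphatase subunit that reverses the stress response, stood at 25.2 and 23.8 RPKM in footprints and 22.6, 22.5 and 23.1 RPKM in RNA and was not called. Among polyamine and iron regulated mRNAs 5 of 14 (35.7%) were called lower, the ferritins lowest, while ODC1, which starts polyamine synthesis, had an efficiency of -1.13 and TFRC, the transferrin receptor, one of -0.01, and neither was called, although ODC1 was called lower without centring.

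Growth and cell cycle lists lay near the median gene. Of 30 mitosis genes 2 (6.67%) were called higher and 1 (3.33%) lower (median -0.29), against 9.56% and 9.48% over all genes. The 2 called higher were CCNB1, at 138 and 122 RPKM in footprints and 85.2, 83.5 and 83.0 RPKM in RNA, and its kinase CDK1, at 87.1 and 103 RPKM against 63.0, 61.3 and 62.5 RPKM. Both lay close to the 2-fold limit: the calls were lost with a minimum of 5 RPKM (0.99 and 0.97), that of CDK1 without footprint replicate 2 (0.93) and that of CCNB1 with footprints rescaled to coding length (0.69). Of 41 DNA replication genes 1 (2.44%) was called higher and 2 (4.88%) lower (median -0.20), and of 31 ribosome biogenesis genes 2 (6.45%) and 2 (6.45%) (median -0.48). Of 30 immediate early and short-lived mRNAs 4 (13.3%) were called higher and 1 (3.33%) lower (median -0.10). EGR1, an immediate early transcription factor, stood at 42.2 and 40.3 RPKM in footprints and 15.1, 29 and 26.2 RPKM in RNA. Its RNA libraries spread widely, and it was not called (adjusted p = 0.55, limma), but it was called higher without RNA replicate 1 (1.04), with the replicate block (1.43) and with 1 spread for both assays (1.32).

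Coding length went with efficiency in the own-sequence genes. In 4 classes of about equal size, from the shortest to the longest, the median was 0.03, -0.26, -0.40 and -0.63, and the share called higher was 19.2%, 6.90%, 3.17% and 1.20%. Spearman's rho between coding length and efficiency was -0.38 across 6682 genes, which share libraries and are not independent replicates. Set against the median of own-sequence genes in the same of 10 coding-length classes, 33 of 36 respiratory chain genes still lay above it (median 0.52 above), 43 of 50 mitochondrial ribosomal proteins (0.47), all 17 proteasome subunits (0.50), 21 of 25 ER genes (0.48) and 23 of 33 T-cell receptors (0.36). For chromatin regulators the distance shrank to -0.08, with 16 of 39 above the class median, and for zinc finger genes it was -0.25, with 24 of 59 above. RPKM divides both assays by 1 gene length although footprints fall mainly in coding sequence. When footprints were rescaled to the coding length of the principal transcript, rho was -0.62. Coding length is itself a divisor of the rescaled value, so a negative rho is partly built in and does not test the trend.

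**Figure D5:**
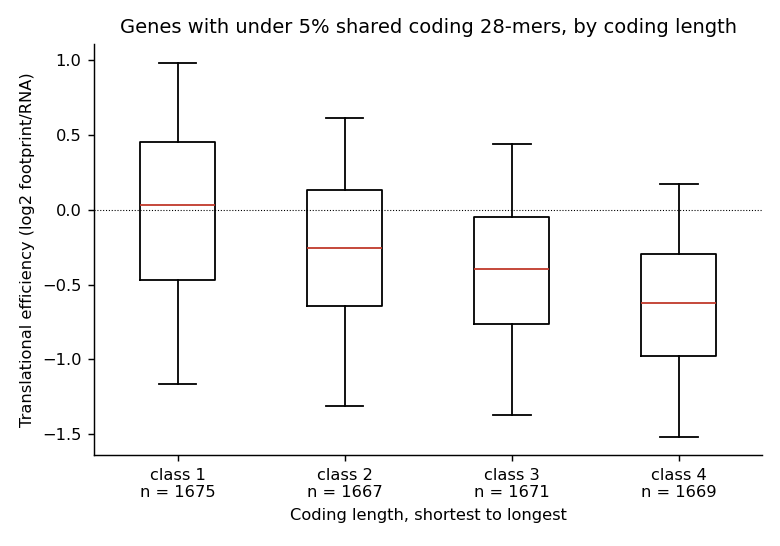
Log2 translational efficiency of protein-coding genes with under 5% shared coding 28-mers, in 4 classes of about equal size by coding length; boxes show quartiles and the median, whiskers the 5th and 95th percentiles. The median falls from 0.03 in the shortest class to -0.63 in the longest.

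Features of the leader went with smaller differences. Genes with no upstream ATG had a median of -0.27, those with 1 to 2 a median of -0.39, and those with 3 to 5 or at least 6 a median of -0.45 each. Within the shortest class of coding length the median was 0.10 without an upstream ATG and -0.06 with 1 or more, and within the longest it was -0.57 and -0.66. This order did not hold with footprints rescaled to coding length: the medians by number of upstream ATG were then 0.74, 0.63, 0.61 and 0.78, highest with at least 6, and within the shortest class of coding length 1.51 without and 1.58 with 1 or more. By leader length the medians differed little, from -0.30 to -0.38. By GC content of the leader the median was -0.23 in the lowest of 4 classes and -0.50 in the highest. With footprints rescaled to coding length these 2 medians were 0.78 and 0.57, in the same order. Genes with the highest GC content in the coding sequence had a median of -0.52 and those with the lowest one of -0.19.

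The bases around the start codon set initiation sites apart, with a purine 3 bases before the ATG and a G right after it being the favoured context. Median efficiency was -0.33 in 3119 own-sequence genes with both, -0.31 in 2540 with the purine alone, -0.43 in 473 with the G alone and -0.39 in 420 with neither. Genes called lower made up 3.40% and 3.54% of the classes with the purine, and 6.98% and 6.19% of those without. The contexts of 2 high and 2 low genes show how such sites look, with the base at position -3, the ATG and the base at +4 in capitals (GENCODE 29, 9 bases before to 4 bases into the coding sequence).
CD3G: gagactGacATGG
NDUFB6: agcggcGacATGA
OGT: aagctcCagATGG
SLC35A4: tgtgtgGgtATGA

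OGT lacked the purine, whereas SLC35A4 had it, as did CD3G and NDUFB6.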

How the data were processed

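The authors deposited RPKM values for each library, 1 file per sample; the submitters' processing notes name STAR and the build hg19, with no version. The counting tool, annotation, gene lengths, strand use and treatment of reads with several matches were not given in any source used here. Library sizes were estimated from the steps between low RPKM values: 89.2 to 92.9% of values came within 0.05 of a whole read. Gene names came from a name table (49395 IDs) and GENCODE release 29 (267 more), and 6227 IDs stayed unnamed. Footprint (2) and RNA (3) libraries under DMSO were compared on log2(RPKM + 0.5) with limma, each library centred on the median tested gene, with weights estimated per assay, and p-values adjusted by Benjamini and Hochberg over all 10287 genes. The fit was tested on simulated data. Transcript features, coding 28-mers and sequences came from the principal GENCODE 29 transcript (GRCh38), whose build differs from that of the files; no coordinates were transferred. Genes were named as the 12 highest and 12 lowest called protein-coding genes with a geometric mean of at least 10 RPKM and both footprint libraries on the same side of all RNA libraries, outside histones and mitochondrially encoded genes, the 2 highest and 2 lowest of each list, a set of fixed genes, and the most abundant long non-coding RNAs. A few more genes were named after their values were seen, and some genes that the rule selects are not reported here. The members and lists were chosen with earlier results of these data known. Gene lists were described by counts and medians without a set test. Alternatives covered the pseudocount, filters, centring, TMM scaling, weights, a replicate block, left-out libraries and rescaling to coding length. Fits used limma 3.58.1 in R 4.3.3, and tables Python 3.11.15 with pandas 2.3.3.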

Additional observations from a re-analysis of the deposited data

How the results depend on the processing

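The counts of genes called higher and lower (983 and 975) were 451 and 525 with a minimum of 5 RPKM, 2827 and 2303 with no minimum, 410 and 2150 without centring, 1525 and 1593 with footprints rescaled to coding length, and 453 and 308 on genes with under 5% shared sequence, a setting added after the data were seen; the cause was not tested. With pseudocounts of 0.1 and 1, TMM factors, 1 spread for both assays, protein-coding genes alone or at least 20 estimated footprint reads, the counts lay between 703 and 1058 higher and 724 and 1094 lower. Leaving out each library in turn gave 963 to 1013 higher and 941 to 1089 lower. With the replicate number as a block the counts were 957 and 929, and deviations of same-numbered libraries correlated at -0.035 across genes. The footprint libraries spread more than the RNA libraries (median SD 0.18 against 0.04), which could hide a shared origin. This value therefore cannot decide whether same-numbered samples were paired. Compared with the fit as reported, coding-length rescaling kept 398 of the higher and 595 of the lower calls and turned 18 to the opposite direction, and it changed the sign of 6 of 30 list medians (aminoacyl-tRNA synthetases, proteasome, stress-response mRNAs, polyadenylated histone variants, DNA replication and mitosis), with moves of up to 3.31. No other setting turned a call of that fit to the opposite direction. Among the genes tested by name, rescaling reversed the direction of SRSF3 (1.15), BTG1 (0.97), EIF4EBP2 (1.09) and MAD2L1 (0.48). At any size of difference 4700 genes had an adjusted p under 0.05. The footprint libraries, with an estimated 1.67 and 2.27 M reads (M: 1e6), limit the precision of every efficiency.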

Other observations

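Replication-dependent histones, whose mRNAs end in a stem-loop and carry no poly(A) tail, were nearly absent from the RNA libraries and abundant among footprints. Of 55 listed genes 24 matched a name in the files, and the other 31 are not in these values. Of the 24, 18 had at least 1 RPKM in footprints and less in RNA, and the 4 tested were all called higher, against 9.56% over all genes. H1-2, a linker histone, stood at 3310 and 3230 RPKM in footprints and 3.61, 3.37 and 3.54 RPKM in RNA. Their summed level was 34615 to 36364 RPKM in footprints and 25.0 to 25.2 RPKM in RNA. The polyadenylated variant CENPA, the histone of centromeres, stood at 40.9 and 39.2 RPKM against 26.8, 26.5 and 26.0 RPKM, a call lost without centring and with a minimum of 5 RPKM. How RNA was selected before sequencing was not tested.

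Non-coding RNAs were found on both sides. MALAT1, a nuclear RNA, stood at 318 and 420 RPKM in footprints and 27.9, 29 and 30.1 RPKM in RNA, a difference of 4.10 (adjusted p = 7.0e-07, limma). NORAD, a cytoplasmic RNA, stood at 0.248 and 1.35 RPKM in footprints and 47.1, 48.5 and 50.3 RPKM in RNA and fell below the footprint limit. TUG1 was called lower at 4.68 and 5.01 RPKM against 38.9, 39.4 and 42.0 RPKM. Of 99 tested small nucleolar RNAs 64 were called higher and 2 lower, with a median of 3.01, against 9.56% and 9.48% over all genes. Genes of this type held 0.316% of estimated footprint reads and 0.0122% of RNA reads. Small nuclear RNAs (6 tested, median 5.15) and small Cajal body RNAs (5 tested, median 6.41) were also high. Whether footprint reads of non-coding RNAs come from ribosomes was not tested. Of 19 tested variable segments of T-cell receptor genes 8 were called higher and none lower, against the same shares over all genes, with a median of 0.83.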
